A study of Mus musculus with 18 samples.

Results

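The comparison of lipopolysaccharide (LPS) with tumour necrosis factor (TNF) after 3 h rested on 4 libraries of poly(A) RNA from mouse bone marrow-derived macrophages, of 18 in the whole series. Its members were the libraries whose labels give 3 h of LPS or 3 h of TNF, in wild-type (WT) cells and in the genotype labelled RelA-TA-KI. The latter carries a knock-in at Rela, which encodes a transactivating subunit of NF-kB. LPS was set against TNF within each genotype, which gave 2 pairs. All cells came from C57BL/6 bone marrow, were labelled with an age of 12 days, grew in medium with 30% L929-conditioned medium and were stimulated on day 7 of culture. LPS was given at 100 ng/ml and TNF at 10 ng/ml, so the comparison is between these doses and not between equal activities. The other 14 libraries were unstimulated cells of both genotypes and both stimuli at 0.5, 1 and 8 h, each with 1 library per genotype. By its title the series asks about RelA and its targets in inflammation.

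LPS is a component of the outer membrane of gram-negative bacteria and acts on TLR4, which signals through the adaptors MyD88 and TRIF. The TRIF branch activates IRF3, which together with NF-kB switches on the gene of interferon beta, and the secreted interferon then acts on the same and neighbouring cells through JAK kinases and factors such as STAT2 and IRF9. TNF is itself a product of LPS-stimulated macrophages. It acts on its own receptors, which activate NF-kB and MAP kinases without TRIF.

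No group had a second library, and the labels name no separate animals or cultures, so the p-values measure only how the genotype pairs differed over the 9 conditions. Total counts were 5555720 and 5555552 in the WT and RelA-TA-KI LPS libraries and 5521652 and 4663650 in the TNF libraries, within a range of 4663650 to 6721917 over all 18. The RelA-TA-KI TNF library stood apart, with the lowest total of the 18, the lowest share of mitochondrial counts (0.404%) and the highest share of counts in Gm42418 (3.36%), a gene that overlaps ribosomal RNA. Values below are CPM, counts scaled to a common library size, after TMM scaling, given as WT and then RelA-TA-KI. A CPM of 0 allows up to 0.480 in the WT and 0.625 in the RelA-TA-KI TNF library, the level of 3 counts. These floors and the intervals below cover counting error only. Ratios are log2 fold changes of LPS over TNF from edgeR's quasi-likelihood test with genotype as the block, with their standard error, and a gene is called at a Benjamini-Hochberg adjusted p under 0.05 over all 11308 genes tested. With 1 library per genotype and stimulus, LPS and TNF libraries can often fail to overlap by chance. The share of all genes tested without overlap is not given here. Counts of Rela itself do not show which allele was read, so they check no genotype label. The macrophage marker Lyz2, the gene of lysozyme, read 5922 and 5133 CPM in unstimulated cells, 6038 and 5551 after TNF, and 6369 and 5667 after LPS, and its summed list of macrophage identity genes lay between 10750 and 11840 CPM in these 6 libraries.

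Upstream sequences of 5 genes are shown because they carry the motifs that recur below, and because the genes stand for different roles: a chemokine, an antiviral effector, interferon beta, a cytokine and the NF-kB inhibitor that both stimuli raised. Each is the 250 bases before the RefSeq start on GRCm38.p6, the mm10 build of the count table, written 5′ to 3′ on the strand of the gene. Capitals mark matches, on either strand, to the interferon response element core (GAAA, any 2 bases, GAAA), the NF-kB type motif (GGG, any 3 bases, TTCC) and the AP-1 type motif (TGANTCA).
Cxcl10, chr5:92348890-92349139, reverse strand: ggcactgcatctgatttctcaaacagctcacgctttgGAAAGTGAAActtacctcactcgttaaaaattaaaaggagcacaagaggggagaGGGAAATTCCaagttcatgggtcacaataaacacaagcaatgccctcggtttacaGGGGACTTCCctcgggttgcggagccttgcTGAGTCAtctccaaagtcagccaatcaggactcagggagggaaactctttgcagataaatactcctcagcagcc
Ifit1, chr19:34640639-34640888, forward strand: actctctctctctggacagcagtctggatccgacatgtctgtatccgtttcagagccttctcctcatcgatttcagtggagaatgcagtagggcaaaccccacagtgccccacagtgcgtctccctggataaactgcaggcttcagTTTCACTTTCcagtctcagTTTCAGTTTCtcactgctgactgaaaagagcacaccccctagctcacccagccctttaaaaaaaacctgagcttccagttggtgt
Ifnb1, chr4:88522795-88523044, reverse strand: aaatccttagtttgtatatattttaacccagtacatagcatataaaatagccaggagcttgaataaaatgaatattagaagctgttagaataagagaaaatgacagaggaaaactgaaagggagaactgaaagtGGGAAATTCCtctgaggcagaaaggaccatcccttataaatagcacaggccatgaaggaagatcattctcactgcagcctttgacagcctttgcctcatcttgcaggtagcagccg
Il6, chr5:30012864-30013113, forward strand: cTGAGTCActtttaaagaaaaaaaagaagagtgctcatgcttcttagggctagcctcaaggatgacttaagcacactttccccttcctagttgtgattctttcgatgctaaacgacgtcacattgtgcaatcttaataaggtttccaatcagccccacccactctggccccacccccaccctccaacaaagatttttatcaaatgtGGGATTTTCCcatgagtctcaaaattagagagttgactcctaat
Nfkbia, chr12:55492648-55492897, reverse strand: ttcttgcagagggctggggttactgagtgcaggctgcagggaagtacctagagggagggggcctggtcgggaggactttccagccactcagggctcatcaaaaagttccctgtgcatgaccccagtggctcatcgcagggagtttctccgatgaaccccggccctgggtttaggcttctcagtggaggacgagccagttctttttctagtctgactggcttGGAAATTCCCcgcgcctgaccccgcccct
The Cxcl10 sequence held an interferon response element core whose first letter lies 213 bases before the start, NF-kB type motifs at 159 and 104 bases and an AP-1 type motif at 74 bases. The Ifit1 sequence held the interferon response core at 104 and 85 bases. Single NF-kB type motifs lay at 116 bases in Ifnb1, 44 bases in Il6 and 29 bases in Nfkbia, and Il6 had an AP-1 type match at 249 bases. In no case do these letters show that a factor was bound.

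LPS and TNF left the macrophages in widely different states at 3 h. Of the 11308 genes tested, 3539 (31.3%) were called, 1913 (16.9%) higher and 1626 (14.4%) lower after LPS than after TNF. Each count of list members called between LPS and TNF at 3 h stands beside these shares. A call with a log2 difference of 1 or more was made for 1591 genes (14.1% of those tested). The sign was the same in both genotypes for 3534 of the 3539. The test takes its spread from how the genotype pairs differ, so a call itself favours a shared sign. The count is therefore no separate support for the calls. The 5 others, named because the sign differed and not by the rule for named genes, were Ifi202b, Cacnb4, Shisa3, Cxcl3 and Pdk4. Genes called higher after LPS took 41.2% and 43.2% of the counts after LPS, against 22.6% and 22.2% after TNF and 19.8% and 20.3% in unstimulated cells. These genes were chosen from the same counts, so a larger share after LPS than after TNF was fixed by the choice. The shares describe only its size. Scaling by library totals shifted the median of all genes by -0.40 and turned the split of the calls from 54.1% to 16.6% higher, with 1107 higher and 5544 lower, so moderate differences are relative to the TMM scale. With only the 4 libraries at 3 h in the fit, 2174 genes were called, but that fit leaves 1 residual degree of freedom.

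**Figure D1:**
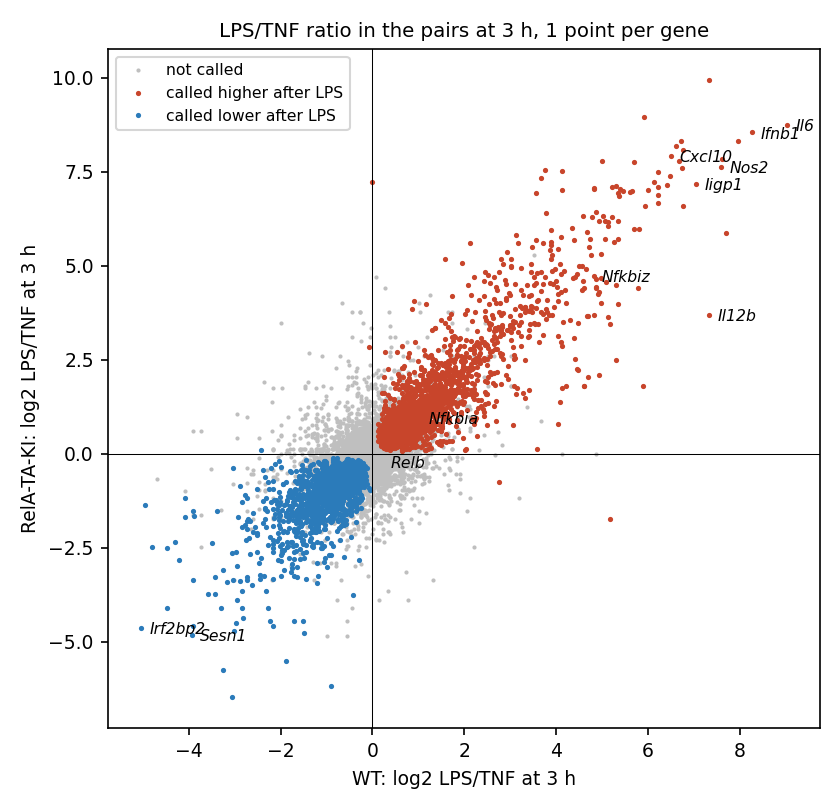
Log2 LPS over TNF at 3 h in WT (x axis) against RelA-TA-KI (y axis) for the 11308 genes tested, each point 1 gene, red where called higher after LPS (1913), blue where called lower (1626) and grey where not called. Called genes lie in the upper right and lower left quadrants, apart from the 5 without a shared sign. A call favours a shared sign, since its spread comes from differences between the genotype pairs.

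Interferon beta was nearly absent after TNF and present after LPS. Ifnb1 had 0 and 0.417 CPM after TNF, 0.124 and 0 in unstimulated cells, and 27.9 and 189 after LPS. Both LPS libraries were far above every TNF and unstimulated library. With 2 reads in the TNF pair, the LPS pair was 583.7-fold higher (95% counting interval 161.2 to 4827). Of 16 tested members of the list of type I interferon and its regulators, 12 were called higher after LPS and none lower, with a median log2 ratio of 2.35 against -0.006 over all genes.

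The list holds transcription factors that relay interferon signalling. Irf7, which drives the interferon alpha genes, read 17.0 and 16.9 CPM after TNF and 426 and 515 after LPS (log2 4.78 ± 0.23, adjusted p = 1.68e-08). Its TNF levels were close to the unstimulated 10.0 and 12.0, and its change after TNF was not called (0.64, adjusted p = 0.11). Stat2 went from 99.4 and 73.3 after TNF to 647 and 619 after LPS (2.86 ± 0.18), and Irf9 from 37.1 and 34.8 to 133 and 150 (1.96 ± 0.13). The products of Stat2 and Irf9 take part in the complex that binds interferon response elements. Irf8, a factor of macrophage and dendritic cell development, read 78.0 and 95.8 after TNF and 382 and 694 after LPS (2.58 ± 0.32). Irf3, the factor that the TRIF branch activates, was at 35.5 and 23.6 after TNF and 27.3 and 15.3 after LPS and was not called (-0.48, adjusted p = 0.067). Ifnar1, a chain of the receptor, was not called either (0.03, adjusted p = 0.83). With library totals both were called lower (Irf3 -0.88, adjusted p = 0.0027, and Ifnar1 -0.37, adjusted p = 0.0035). With only the 16 stimulated libraries edgeR called Irf3 lower (-0.50, adjusted p = 0.048).

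Inhibitors of interferon signalling in the same list included Socs1, Usp18 and Socs3. Socs1, an inhibitor of JAK kinases, was at 3.36 and 1.25 CPM after TNF and at 179 and 292 after LPS (6.52 ± 0.36, adjusted p = 8.99e-08). Usp18, which removes ISG15 from proteins and blocks the interferon receptor, was at 7.84 and 8.96 after TNF and 323 and 477 after LPS (5.54 ± 0.29). Socs3, an inhibitor of cytokine receptors, was at 49.3 and 58.8 after TNF and 765 and 883 after LPS (3.98 ± 1.25, adjusted p = 0.037). Its call was lost on leaving out any of the 4 libraries, with adjusted p-values from 0.056 (without WT LPS) to 0.23 (without WT TNF), and with no filter on low counts (adjusted p = 0.098). Irf1 had the widest gap without a call in this list: 424 and 184 after TNF, 1763 and 1843 after LPS, 24.0 and 26.9 unstimulated (2.88 ± 1.16, adjusted p = 0.092). DESeq2 called Irf1 with an adjusted p of 0.0365.

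All 32 tested antiviral interferon-stimulated genes were called higher after LPS, with a median of 4.03 and a range of 1.18 (Bst2, a tether of budding virus particles) to 8.18 (Oasl1). Rsad2, the gene of the antiviral enzyme viperin, was the most abundant example: 41.3 and 55.8 CPM unstimulated, 268 and 245 after TNF and 22820 and 34740 after LPS (6.73 ± 0.36, adjusted p = 1.65e-07). Its neighbour in function Cmpk2, a nucleotide kinase, read 82.0 and 69.6 after TNF and 7364 and 11750 after LPS (6.91 ± 0.29). For both genes the TNF libraries were above the unstimulated ones and far below the LPS ones. Ifit1, which binds foreign RNA, read 49.3 and 40.8 after TNF and 5046 and 9002 after LPS (7.19 ± 0.35). Oasl1 read 2.72 and 6.25 after TNF and 699 and 2019 after LPS (8.18 ± 0.42, adjusted p = 1.06e-07), while unstimulated cells had 1.73 and 5.20. Together with the inducible GTPases the list made up 5.68% and 7.62% of all counts after LPS, 0.28% and 0.17% after TNF and 0.10% and 0.12% in unstimulated cells.

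Inducible GTPases, which coat and disrupt vacuoles of intracellular pathogens, showed the same direction in all 13 tested members, with a median of 4.47. Iigp1 read 1.44 and 6.67 CPM after TNF and 203 and 973 after LPS (7.08 ± 0.32, adjusted p = 2.05e-08). Tgtp1 had 0 reads in both TNF libraries and 9.59 and 17.6 CPM after LPS, at least 49.6-fold higher against a floor of 3 counts over the TNF pair. The copy Tgtp2 is nearly identical, so reads may be split between them, and DESeq2 did not call Tgtp1 (adjusted p = 0.16). The guanylate-binding protein genes Gbp5 and Gbp2 were also raised by TNF. Gbp5 went from 2.35 and 2.51 unstimulated to 195 and 17.5 after TNF and 2300 and 2137 after LPS, and Gbp2 from 8.04 and 10.2 to 142 and 21.2 and then 1965 and 1789. In both of these genes the WT TNF library was well above the RelA-TA-KI one, while the LPS libraries of the genotypes were close together. Gbp7 (78.8 and 21.5 CPM after TNF, 23.9 and 28.5 unstimulated) and Gbp9 (20.3 and 16.9, 12.4 and 23.0) were not called after TNF (adjusted p = 0.22 and 0.68). The LPS over TNF ratios were 4.94 ± 0.98 for Gbp5 and 4.70 ± 0.69 for Gbp2.

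The interferon response core stood in the promoter window, 250 bases before to 50 after the RefSeq start, of 3.49% of 27025 genes in the RefSeq table and 3.37% of the 8909 tested genes with a window. It stood in 7.74% of the 1524 genes called higher after LPS with a window, in 24.74% (48 of 194) of those higher by a log2 of 3 or more, and in 1.47% of the 1295 called lower. Of 25 antiviral genes with a window, 15 held it. For the NF-kB type motif the shares were 6.32% of tested genes, 7.81% of those called higher, 10.82% of those higher by 3 or more and 5.02% of those called lower. For the AP-1 type motif they were 4.91%, 6.76%, 16.49% and 4.17% in the same order. These shares are descriptions of short windows without a test, and the motifs may overlap one another.

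Among inflammatory cytokines 14 of 19 tested were called higher after LPS and none lower, beside 16.9% and 14.4% of all genes. Their median was 3.94, or 3.78 with genes of few TNF reads at their bound. Of the 14, Csf3 rested on 11 LPS reads against 0 after TNF, and DESeq2 did not call it (adjusted p = 0.582). Ebi3 was not called with library totals (0.70, adjusted p = 0.089), nor Lif without the genotype block (1.81, adjusted p = 0.344). Il6 had 0.320 and 0 CPM after TNF and 216 and 38.7 after LPS, and 0 reads in both unstimulated libraries. The LPS pair was 719.6-fold higher on 2 TNF reads (95% counting interval 198.8 to 5949). Il12b, the shared subunit of IL-12 and IL-23, read 3.04 and 1.25 after TNF and 502 and 17.2 after LPS (6.77 ± 0.70, adjusted p = 3.69e-05). Il27, a cytokine of the same family, read 4.96 and 2.29 after TNF and 379 and 324 after LPS (6.54 ± 0.42). The genotypes were close for Il27 and far apart for Il12b after LPS, yet LPS was above TNF in each.

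Tnf itself was raised by both stimuli, from 17.2 and 14.2 CPM to 193 and 197 after TNF (3.70 ± 0.74, adjusted p = 0.010) and to 2916 and 2528 after LPS. LPS exceeded TNF by 3.78 ± 0.68 (adjusted p = 0.0023). Il1b, a pyrogenic cytokine that needs cleavage by an inflammasome, read 8.64 and 3.75 after TNF and 356 and 61.1 after LPS (5.08 ± 0.47), and Il1a 12.2 and 6.67 against 318 and 85.6 (4.45 ± 0.71). Neither was called without the genotype block (adjusted p = 0.061 and 0.064). Il1rn, the antagonist of both, was at 59.1 and 106 after TNF and 349 and 643 after LPS (2.58 ± 0.30). Il15, which sustains natural killer cells, was at 32.2 and 13.3 after TNF and 370 and 347 after LPS (3.94 ± 0.37). The 5 members not called included Csf1, the macrophage growth factor, at 346 and 202 after TNF and 713 and 403 after LPS (1.02, adjusted p = 0.093), and Osm at 9.77 and 12.7 against 16.6 and 24.5 (0.85, adjusted p = 0.15). Csf1 was called by DESeq2 (adjusted p = 0.038). Both genes were called in the fit of the 4 libraries at 3 h (adjusted p = 0.0059 for Csf1 and 0.032 for Osm). That fit leaves 1 residual degree of freedom. Il10, at 0.160 and 0 CPM after TNF and 2.77 and 3.43 after LPS, was not called by edgeR (4.78, adjusted p = 0.051). DESeq2 called Il10 (adjusted p = 0.0038).

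Chemokines that draw T cells through CXCR3 had the highest ratios of their class. Cxcl10 went from 3.96 and 3.94 CPM to 97.5 and 37.1 after TNF and 8778 and 9005 after LPS (7.33 ± 0.97, adjusted p = 0.00032). Cxcl9 was at 1.28 and 0 after TNF and 222 and 88.8 after LPS (7.77 ± 0.30), with 0 reads in unstimulated cells, and Cxcl11 at 0.800 and 0.417 against 36.0 and 62.2 (6.17 ± 0.46). For each of these 3 ligands both LPS libraries were far above both TNF libraries. The neutrophil attractant Cxcl2 was not called: 48.2 and 36.0 after TNF, 323 and 53.5 after LPS (1.77, adjusted p = 0.083). Its relative Cxcl1 was at 4.0 and 2.29 against 125 and 10.1 (4.36 ± 0.61), a call that was lost without the WT TNF library (2.25, adjusted p = 0.086). In Cxcl3 the ratio turned to -0.16 without the WT LPS library, which had 19.0 CPM against 0.458 in the RelA-TA-KI LPS library. Of the 7 tested CXC chemokines 6 were called higher, beside 16.9% of all genes, with a median of 4.36. DESeq2 and library totals each called 5. The 6 include Cxcl3, whose log2 ratio was 2.76 in WT and -0.75 in RelA-TA-KI. Also among them was Cxcl16 (0.98, adjusted p = 0.0455), not called with library totals (0.58, adjusted p = 0.138) or with no filter on low counts (adjusted p = 0.149). On leaving out 1 library its ratio ran from 0.76 to 1.17.

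CC chemokines were called higher in 8 of 10 and lower in none, beside 16.9% and 14.4% of all genes, with a median of 3.75. With library totals 7 were called higher and 1 lower. Ccl22 (1.32, adjusted p = 0.031 with edgeR) was not called with library totals (0.91, adjusted p = 0.092) or with DESeq2 (adjusted p = 0.092). Its ratio was 0.58 without the WT LPS library. Ccl5, which recruits T cells and monocytes, read 20.8 and 1.67 CPM after TNF and 1254 and 864 after LPS (6.74 ± 0.62, adjusted p = 1.98e-05). The monocyte attractants Ccl2 and Ccl7 were already abundant: Ccl2 read 384 and 391 unstimulated, 289 and 350 after TNF and 3802 and 4566 after LPS (3.71 ± 0.20). Its change after TNF was not called (-0.28, adjusted p = 0.34). Ccl7 read 120 and 194 after TNF and 2234 and 3127 after LPS (4.11 ± 0.22). Ccl3 and Ccl4, macrophage inflammatory proteins, were higher by 3.77 ± 0.36 and 3.73 ± 0.21. Ccl6, at 273 and 364 after TNF and 283 and 367 after LPS, was not called (0.03, adjusted p = 0.86).

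**Figure D2:**
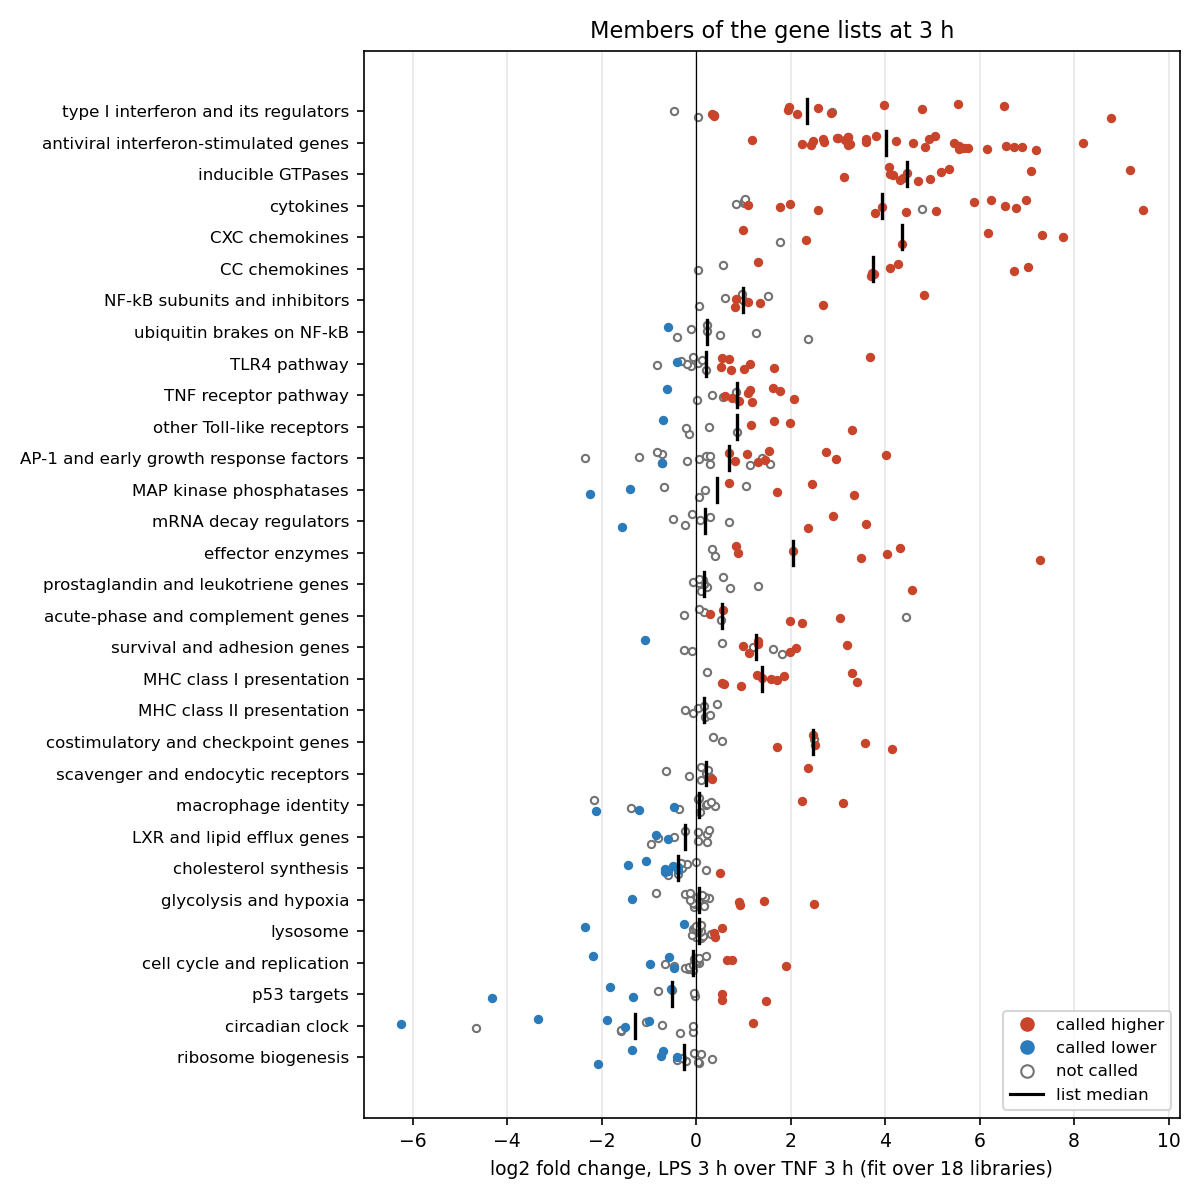
Fitted log2 LPS over TNF at 3 h for each tested member of the gene lists, filled where called and open where not, with a black bar at the median of each list. Medians were 4.47 for inducible GTPases, 4.03 for antiviral genes, 1.00 for NF-kB subunits and inhibitors and 0.23 for the ubiquitin brakes, and single values with 3 or fewer reads in a group depend on the prior count.

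Several NF-kB subunits and inhibitors were raised by both stimuli. Of 11 tested, 6 were called higher after LPS and none lower, beside 16.9% and 14.4% of all genes, with a median of 1.00. Relb, a subunit of the non-canonical pathway, rose from 9.28 and 7.17 CPM to 108 and 41.9 after TNF (3.16 ± 0.37) and to 126 and 36.4 after LPS (3.22 ± 0.37). The difference between the stimuli was 0.06 ± 0.29 (adjusted p = 0.91), and the LPS and TNF libraries overlapped. Nfkbia, the gene of IkBa, rose from 38.2 and 22.9 to 542 and 271 after TNF (3.73 ± 0.77) and to 1122 and 524 after LPS (4.72 ± 0.79). LPS and TNF were not called apart for Nfkbia in the fit of 18 libraries (1.00 ± 0.67, adjusted p = 0.30). They were in the fit of the 4 libraries at 3 h (adjusted p = 0.0068), which leaves 1 residual degree of freedom. Nfkbie, another IkB, was at 162 and 37.7 after TNF and 261 and 53.3 after LPS and was not called (0.61, adjusted p = 0.56), except in the fit of the 4 libraries (adjusted p = 0.030).

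The members that were called included Rel, at 63.4 and 73.1 CPM after TNF and 453 and 424 after LPS (2.68 ± 0.40, adjusted p = 0.00056), whose change after TNF was not called (0.54, adjusted p = 0.44). Nfkbiz, a nuclear IkB that acts as a cofactor for secondary genes, read 21.8 and 18.1 after TNF and 617 and 486 after LPS (4.81 ± 0.59). Nfkb1, which encodes p105 and p50, read 237 and 150 against 680 and 330 (1.35 ± 0.23). Rela read 138 and 122 after TNF and 283 and 181 after LPS (0.83 ± 0.14), above the unstimulated 62.5 and 67.4 in every library. Nfkb2 was higher by 1.09 ± 0.27, a call that was lost without the WT LPS library (0.76, adjusted p = 0.10), without the WT TNF library (1.13, adjusted p = 0.063) and without the RelA-TA-KI TNF library (1.03, adjusted p = 0.072).

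The ubiquitin-editing brakes of the pathway had 1 of 8 members called lower after LPS and none higher by edgeR. Over all genes these shares were 14.4% and 16.9%. The median of the list was 0.23. DESeq2 called 1 lower and 3 higher: Tnfaip3, Tnip3 (1.26, adjusted p = 0.037) and Tax1bp1 (0.23, adjusted p = 0.033). Otulin, a deubiquitinase of linear chains, read 50.6 and 49.6 CPM after TNF and 38.6 and 27.2 after LPS (-0.60 ± 0.15, adjusted p = 0.0090), a call lost without the RelA-TA-KI LPS library (-0.37, adjusted p = 0.13). Tnfaip3, the gene of A20, read 282 and 212 after TNF and 1399 and 1107 after LPS. Its adjusted p was 0.057 with edgeR (2.36 ± 0.83) and 0.0174 with DESeq2. Tnip1, a partner of A20, read 242 and 149 after TNF and 244 and 73.5 after LPS (-0.40, adjusted p = 0.36).

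In the TLR4 pathway 8 of 17 tested members were called higher after LPS and 1 lower, beside 16.9% and 14.4% of all genes. Their median was 0.21. With library totals the calls were 5 higher and 6 lower. The receptor gene itself, Tlr4, read 129 and 158 CPM after TNF and 104 and 245 after LPS and was not called (0.21, adjusted p = 0.61). Its co-receptor Cd14 read 259 and 330 against 654 and 528 (1.01 ± 0.21), and the adaptor Myd88 89.8 and 57.5 against 250 and 211 (1.66 ± 0.16). Map3k8, the kinase Tpl2 that links NF-kB1 to ERK, had the largest ratio of the list, from 10.4 and 7.71 after TNF to 114 and 120 after LPS (3.68 ± 0.31, adjusted p = 3.08e-06). The gene of the kinase TBK1, which phosphorylates IRF3, was at 138 and 132 after TNF and 231 and 206 after LPS (0.69 ± 0.08).

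In the TNF receptor pathway 9 of 14 tested members were called higher after LPS and 1 lower, beside 16.9% and 14.4% of all genes. Their median was 0.88. With library totals 6 were called higher and 1 lower. Not called there were Tnfrsf1b (0.50, adjusted p = 0.133), Traf2 (0.34, adjusted p = 0.093) and Ripk1 (0.20, adjusted p = 0.090). Tnfrsf1a, the death domain receptor of TNF, read 152 and 168 CPM unstimulated, 135 and 147 after TNF and 270 and 383 after LPS (1.19 ± 0.11, adjusted p = 2.21e-06). Cflar, the inhibitor of caspase 8, rose from 133 and 136 to 477 and 513 after TNF (1.89 ± 0.19) and to 1797 and 1619 after LPS, with LPS above TNF by 1.78 ± 0.18. Casp8 was at 76.5 and 80.4 after TNF and 154 and 196 after LPS (1.15 ± 0.10), and Mlkl, the pore former of necroptosis, at 46.0 and 37.3 against 126 and 131 (1.62 ± 0.12). Tnfrsf1a, Cflar, Casp8 and Mlkl each had both LPS libraries above both TNF libraries, which can readily occur by chance with 1 library per genotype and stimulus. Traf1 was higher by 2.07 ± 0.60, a call lost without the WT LPS library (1.34, adjusted p = 0.23), the WT TNF library (1.83, adjusted p = 0.19) or the RelA-TA-KI TNF library (2.24, adjusted p = 0.093).

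Effector enzymes of activated macrophages were called higher after LPS in 7 of 9, beside 16.9% of all genes, with a median of 2.04. Acod1, which makes itaconate, rose from 7.17 and 4.84 CPM to 908 and 115 after TNF (6.07 ± 0.77) and 4879 and 2761 after LPS, and LPS exceeded TNF by 3.48 ± 0.61 (adjusted p = 0.0018; 0.13 without the genotype block). Nos2, the inducible nitric oxide synthase, had 4.0 and 0.208 after TNF and 793 and 59.3 after LPS (7.27 ± 1.07, adjusted p = 0.00064 with edgeR and 0.077 with limma-voom). The arginine transporter gene Slc7a2, which supplies the substrate of nitric oxide synthase, read 11.2 and 5.63 after TNF and 144 and 116 after LPS (4.05 ± 0.28). Its TNF levels lay near the unstimulated 10.6 and 6.28. Of 11 tested prostaglandin genes only Ptgs2, the inducible cyclooxygenase, was called, at 10.2 and 6.04 after TNF and 362 and 76.4 after LPS (4.57 ± 0.50). With library totals 3 others of the 11 were called lower.

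Antigen presentation genes were counted by class. MHC class I presentation genes were called higher in 10 of 11, beside 16.9% of all genes, with a median of 1.40. Among them was the peptide transporter Tap1, at 50.3 and 30.4 CPM after TNF and 432 and 443 after LPS (3.41 ± 0.24). The transactivator Nlrc5 was at 27.2 and 26.3 against 248 and 284 (3.30 ± 0.22). None of 7 class II genes was called, and their median was 0.17. Of 8 costimulatory and checkpoint genes 5 were called higher, and 3 without the RelA-TA-KI TNF library, where Cd40 (adjusted p = 0.065) and Tnfsf4 (adjusted p = 0.32) were lost. Cd274, the gene of PD-L1, rose from 49.4 and 54.9 to 261 and 205 after TNF and to 2473 and 3026 after LPS (3.57 ± 0.25 for LPS over TNF). Cd86 was at 20.0 and 32.1 after TNF and 92.9 and 218 after LPS (2.52 ± 0.26).

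Among regulators of mRNA decay, 3 of 10 were called higher and 1 lower, beside 16.9% and 14.4% of all genes. With library totals 3 were called lower, and without the RelA-TA-KI TNF library none was. Zc3h12a, the RNase Regnase-1 that cleaves cytokine mRNAs, read 8.16 and 10.0 CPM after TNF, near the unstimulated 9.03 and 8.07, and 142 and 79.2 after LPS (3.59 ± 0.37). Zfp36, the gene of tristetraprolin, read 84.8 and 147 after TNF and 504 and 661 after LPS (2.36 ± 0.23). Of 19 glycolytic genes 4 were called higher and 1 lower, with a median of 0.05, and with library totals 4 were called higher and 8 lower. The share called higher was near the 16.9% of all genes. Hk2, an inducible hexokinase, moved in opposite directions from baseline: 87.1 and 92.7 unstimulated, 46.3 and 48.5 after TNF (-0.93 ± 0.23) and 232 and 298 after LPS (1.57 ± 0.22). The difference between LPS and TNF for Hk2 was 2.50 ± 0.23 (adjusted p = 6.93e-06).

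Of 15 macrophage identity genes 2 were called higher and 3 lower, near the 16.9% and 14.4% of all genes, with a median of 0.05; with library totals 9 were called lower, and DESeq2 called 5 lower. Fcgr1, the high-affinity receptor for IgG, fell from 47.2 and 87.1 CPM to 26.7 and 47.9 after TNF (-0.84 ± 0.19) and rose to 189 and 496 after LPS (2.27 ± 0.19). Mertk, a receptor for apoptotic cells, fell from 135 and 127 to 70.6 and 53.8 after TNF (-1.07 ± 0.18) and rose to 255 and 334 after LPS (1.17 ± 0.18). In both genes the unstimulated libraries lay between those of the stimuli within each genotype. Cebpa, a factor of the myeloid lineage, fell after both, from 96.9 and 86.4 to 39.5 and 34.6 after TNF and to 7.46 and 9.61 after LPS (-2.12 ± 0.18 for LPS over TNF).

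Among the genes lower after LPS were regulators whose level after TNF lay near that of unstimulated cells. Irf2bp2, a corepressor that binds IRF2, read 133 and 145 CPM unstimulated, 122 and 120 after TNF and 3.62 and 4.80 after LPS (-4.85 ± 0.42, adjusted p = 7.58e-06). Sesn1, a sestrin that restrains mTORC1, read 112 and 149, then 128 and 143 after TNF, and 8.31 and 5.03 after LPS (-4.32 ± 0.25, adjusted p = 7.11e-08). Neither gene's change after TNF was called (-0.19, adjusted p = 0.73, and 0.06, adjusted p = 0.88). In bulk RNA, fewer cells of a type and less RNA per cell cannot be told apart.

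Receptor and channel genes were among the 12 with the largest decreases. Cnr2, the cannabinoid receptor of immune cells, read 26.2 and 19.6 CPM after TNF and 0.852 and 3.43 after LPS (-3.45 ± 0.35), with 36.9 and 40.5 unstimulated. Kcnj2, an inward rectifier potassium channel, was at 17.6 and 27.8 unstimulated, 48.8 and 73.6 after TNF and 4.47 and 5.49 after LPS (-3.62 ± 0.60, adjusted p = 0.0010). In both genotypes its TNF libraries were the highest and its LPS libraries the lowest, although the change after TNF was not called (1.45, adjusted p = 0.062). Lyl1, a haematopoietic transcription factor, fell with both stimuli, from 46.1 and 49.7 to 23.2 and 20.6 after TNF (-1.12 ± 0.21) and to 3.20 and 0.915 after LPS, and LPS was below TNF by -3.38 ± 0.35.

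Circadian clock genes were called lower after LPS in 5 of 14 and higher in 1, beside 14.4% and 16.9% of all genes. Their median was -1.28, or -1.04 with 2 genes of few reads at their bound. With library totals 11 were called lower. The repressors Bhlhe41 and Bhlhe40 read 191 and 231 CPM after TNF against 17.7 and 24.0 after LPS (-3.34 ± 0.52), and 75.7 and 96.3 against 18.3 and 28.6 (-1.89 ± 0.23). Nr1d1, the gene of REV-ERB alpha, had 0 reads after LPS and 19 after TNF, at least 5.20-fold lower on a floor of 3 counts over the LPS pair; its call was lost without the WT LPS library (adjusted p = 0.051). For lysosomal genes the counts were 3 higher and 2 lower of 18, near the 16.9% and 14.4% of all genes, and with library totals 0 and 14. Without the RelA-TA-KI TNF library 2 were called higher. Their regulator Tfeb was at 30.3 and 32.1 after TNF and 6.18 and 5.95 after LPS (-2.36 ± 0.17).

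Cholesterol synthesis genes were called lower after LPS in 8 of 16 and higher in 1, beside 14.4% and 16.9% of all genes, with a median of -0.38. Stard4, a sterol carrier, read 201 and 205 CPM after TNF and 99.9 and 92.7 after LPS (-1.07 ± 0.09, adjusted p = 1.23e-06), and Sqle, the squalene epoxidase, 290 and 383 against 174 and 256 (-0.65 ± 0.10; adjusted p = 0.091 without the genotype block). Ribosome biogenesis genes were called lower in 5 of 14 and higher in none, beside the same shares of all genes, with a median of -0.26. Myc, a driver of that programme, was at 45.8 and 48.2 unstimulated, 21.8 and 44.0 after TNF and 7.88 and 7.09 after LPS (-2.08 ± 0.31, adjusted p = 0.00030). Cell cycle genes had 3 of 22 called higher and 4 lower, with a median of -0.06, near the shares over all genes (16.9% and 14.4%), and without the RelA-TA-KI TNF library 1 was called higher. E2f2, a factor of the G1 to S transition, read 26.9 and 26.3 after TNF and 4.05 and 7.78 after LPS (-2.18 ± 0.21). With library totals, 13 of the cholesterol genes and 16 of the cell cycle genes were called lower.

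**Figure D3:**
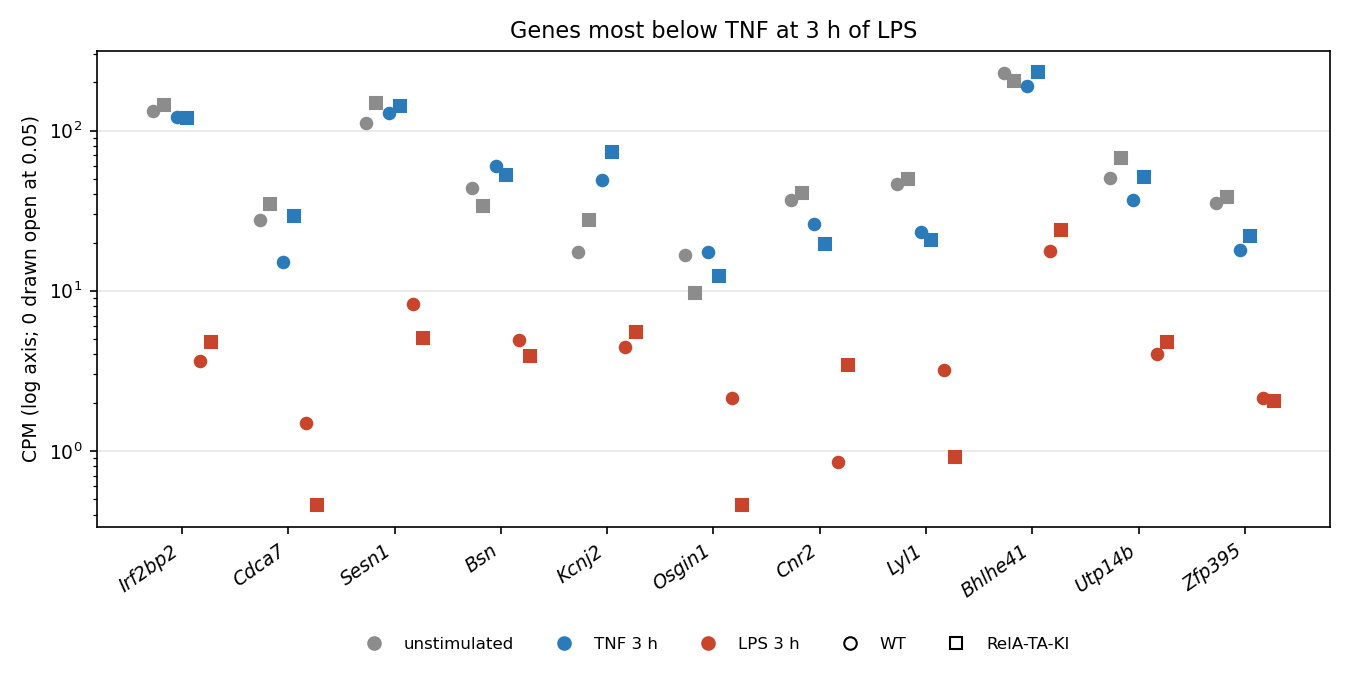
CPM in each library on a log axis for genes lower after LPS, with colours and symbols for stimulus and genotype as in the plot of genes higher after LPS. In Irf2bp2 the LPS libraries stand at 3.62 and 4.80, and the TNF libraries at 122 and 120 stand near the unstimulated 133 and 145.

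Set beside unstimulated cells, LPS at 3 h moved more genes than TNF. After LPS 5380 genes (47.6%) were called, 2809 (24.8%) higher and 2571 (22.7%) lower, and after TNF 1522 (13.5%), 859 (7.60%) higher and 663 (5.86%) lower. Both use the same unstimulated libraries, and the TNF count rested on few libraries: it was 905 without the WT and 746 without the RelA-TA-KI TNF library. With library totals 17.3% of the LPS calls and 31.8% of the TNF calls were higher, in place of 52.2% and 56.4%. Antiviral genes were called higher after LPS in 32 of 32 (median 4.89) and after TNF in 12 of 32 (median 0.73). GTPases were called higher in 13 and 5 of 13, with medians of 7.18 and 0.90. The medians of the 19 cytokines were 4.69 and 1.63, with 16 and 4 called higher. NF-kB subunits and inhibitors were called higher in 11 and 7 of 11, with medians of 3.22 and 2.01, and the CXC chemokines in 7 and 4 of 7, with medians of 6.91 and 4.06. Cell cycle genes were called lower in 13 and 10 of 22, with medians of -0.51 and -0.47.

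The gap between LPS and TNF at 3 h was tested against the mean gap at 0.5 and 1 h. It differed in 2323 genes (20.5%), being larger toward LPS in 1269 (11.2%) and smaller or turned toward TNF in 1054 (9.32%); with library totals 4292 genes differed, 18.9% toward LPS in place of 54.6%. All 32 antiviral genes were called toward LPS. Their median log2 ratio in WT was 0.21 at 0.5 h, 0.32 at 1 h, 3.75 at 3 h and 2.21 at 8 h, and in RelA-TA-KI -0.04, 0.18, 4.33 and 2.59. Mx1, a GTPase that blocks influenza virus, shows the course by library: after LPS 1.81 and 4.53 CPM at 0.5 h, 1.66 and 3.72 at 1 h, 1022 and 1157 at 3 h and 2960 and 3968 at 8 h. After TNF Mx1 read 1.77 and 4.25, 1.64 and 3.82, 14.6 and 7.71, and 236 and 190. At 1 h all libraries were near the 2.47 and 3.41 of unstimulated cells, and at 8 h the TNF libraries were also far above them.

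At 1 h LPS was above TNF in 19 of 19 cytokines in WT and 16 of 19 in RelA-TA-KI, with no test at that time alone. Over all 11308 genes tested, LPS was above TNF at 1 h in 5668 in WT and 5661 in RelA-TA-KI. The median ratio of the cytokine list in WT was 0.42 at 0.5 h, 3.07 at 1 h, 3.52 at 3 h and 4.01 at 8 h, and that of the CC chemokines 0.65, 2.34, 3.78 and 3.76. In RelA-TA-KI the cytokine medians were 0.58, 1.61, 3.66 and 3.36, and the CC chemokine medians 0.53, 2.22, 3.74 and 3.94. The CXC chemokine medians were 1.41, 2.67, 4.93 and 3.82 in WT and 0.80, 1.31, 2.09 and 1.53 in RelA-TA-KI, where 5 of 7 had LPS above TNF at 1 h. Ifnb1 was at 93.1 and 137 CPM at 1 h of LPS, 27.9 and 189 at 3 h and 17.8 and 28.4 at 8 h, and it never exceeded 0.417 after TNF.

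Against 8 h the gap differed in 3200 genes (28.3%), toward LPS at 3 h in 1753 (15.5%) and away from it in 1447 (12.8%); with library totals 81.6% of 3693 were toward LPS at 3 h in place of 54.8%. Ribosome biogenesis genes were called in 10 of 14 toward LPS at 3 h and 1 away, and cell cycle genes in 14 of 22 and none. Their medians in WT went from -0.25 and -0.10 at 3 h to -1.47 and -1.58 at 8 h. Grwd1, a ribosome assembly factor, was at 14.5 and 12.6 CPM after LPS and 12.5 and 11.7 after TNF at 3 h, but at 1.29 and 0.295 against 11.2 and 8.51 at 8 h. Ifit1 reached 5046 and 9002 after 3 h of LPS and 4284 and 7169 after 8 h, whereas after TNF it went from 49.3 and 40.8 to 766.5 and 950. The ratio of Ifit1 therefore was larger at 3 h than at 8 h by 4.49 on the log2 scale.

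**Figure D4:**
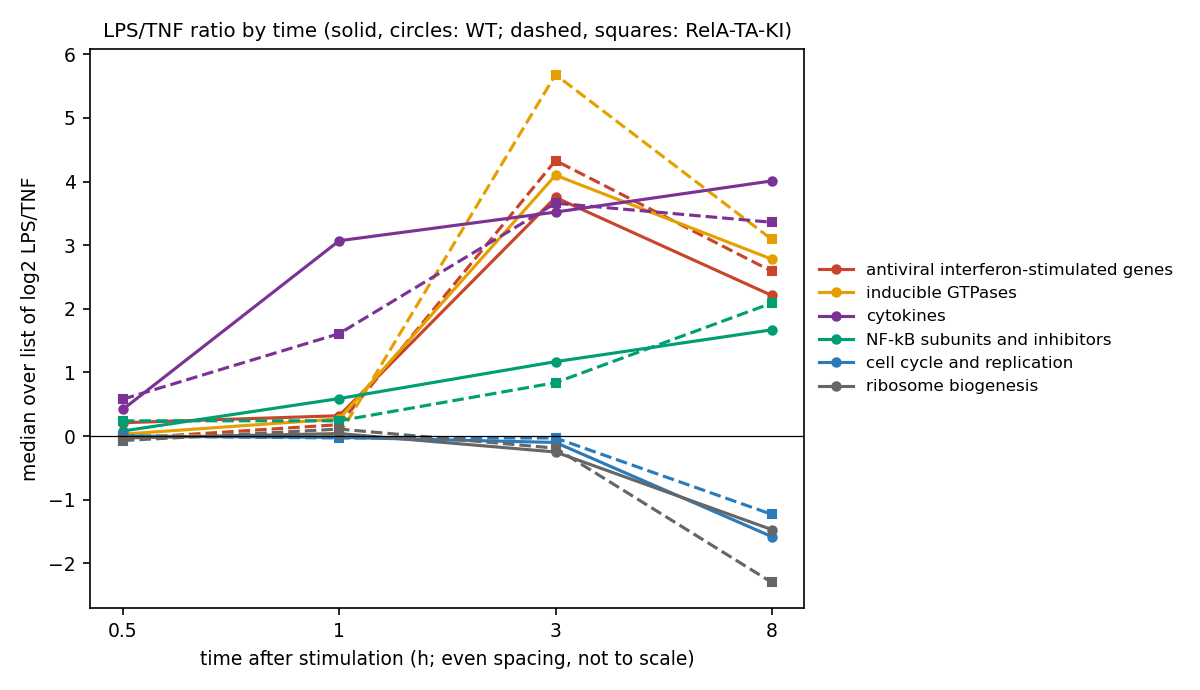
Median log2 LPS over TNF of each list at 0.5, 1, 3 and 8 h (evenly spaced), solid lines WT and dashed lines RelA-TA-KI. Antiviral genes lie at 0.32 or below at 0.5 and 1 h and at 3.75 (WT) and 4.33 (RelA-TA-KI) at 3 h, while cell cycle genes reach -1.58 and -1.23 at 8 h.

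Whether the gap between LPS and TNF at 3 h differed between the genotypes was tested as an interaction. edgeR called 0 genes (0%), with a smallest adjusted p of 0.13 and 837 genes (7.40%) at an unadjusted p under 0.05, 402 with a larger and 435 with a smaller ratio in RelA-TA-KI. The spread came from the other 7 conditions, assuming 1 genotype effect over them. In simulated counts this edgeR fit recovered 0% of changes of 0.5 on the log2 scale, 8.96% of 1 and 74.24% of 2. Its 0 calls therefore do not show that the gap was alike in the genotypes. limma-voom called 0 (0%), with 834 at an unadjusted p under 0.05, and DESeq2 called 26 (0.230%), of which 11 had a larger ratio in RelA-TA-KI. Ifih1, the RNA sensor MDA5, was among the 26 and is named after its values were seen: 55.9 and 31.5 CPM after TNF and 1536 and 2456 after LPS, a log2 ratio of 4.78 in WT and 6.28 in RelA-TA-KI. Its adjusted p was 0.00568 with DESeq2 and 0.13 with edgeR. Some wide gaps between genotypes after LPS came with no call of the interaction, as in Il12b (502 and 17.2 CPM, adjusted p = 0.83) and Nos2 (793 and 59.3 CPM, adjusted p = 0.99).

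Markers of other cell types were counted because macrophage cultures can hold other cells. Of 10 tested neutrophil genes 3 were called higher after LPS and none lower, beside 16.9% and 14.4% of all genes. The 3 were S100a8, S100a9 and Ngp, by 0.69, 0.92 and 0.63. Log2 ratios over the 10 ranged from -1.76 to 0.92, with a median of 0.46. Cxcr2 went the other way, with 2 and 1 reads after LPS against 6 and 7 after TNF. With library totals 1 of the 10 was called higher and 1 lower. Without the WT TNF library none of the 3 calls held, at adjusted p-values from edgeR of 0.14 for S100a8, 0.063 for S100a9 and 0.11 for Ngp. Without the RelA-TA-KI LPS library S100a8 (0.53, adjusted p = 0.15) and Ngp (0.46, adjusted p = 0.11) were not called, nor was S100a8 without the RelA-TA-KI TNF library (adjusted p = 0.084). The summed level of the neutrophil list was 425 and 345 CPM after LPS, 300 and 233 after TNF and 267 and 186 unstimulated, and the defining gene Ly6g had at most 1 read in each library at 3 h. The part of these markers in the cytokine and chemokine results was not tested. Of 10 lymphocyte genes the 2 tested were Cd4 and Cd79b, and neither was called. Cd4 had 186 and 185 reads after LPS and 258 and 193 after TNF, and Cd79b 5 and 6 against 16 and 5. With library totals Cd4 was called lower (-0.40, adjusted p = 0.023). In all 4 libraries at 3 h 4 others of the 10 had 0 reads, among them Cd3e. The mast cell genes Cpa3, Mcpt4, Fcer1a and Tpsb2 also had 0 reads in these libraries. Kit, the only tested gene of that list and a receptor that progenitors share, read 10.1 and 20.2 CPM after TNF and 4.48 and 4.80 after LPS (-1.65 ± 0.55, adjusted p = 0.040), a call lost on leaving out any of the 4 libraries (adjusted p from 0.058 without WT TNF to 0.23 without RelA-TA-KI LPS). Of 4 tested dendritic cell genes 1 was called higher and 1 lower. Ccr7 read 1.92 and 0.208 after TNF and 5.54 and 3.43 after LPS (1.96 ± 0.62), and was not called without the WT LPS, RelA-TA-KI LPS or RelA-TA-KI TNF library (adjusted p = 0.15, 0.059 and 0.14). Zbtb46 read 4.16 and 1.88 against 1.06 and 0.686 (-1.78 ± 0.52), and was not called without the WT LPS, WT TNF or RelA-TA-KI LPS library (adjusted p = 0.10, 0.25 and 0.084). The part of these genes in the other results was not tested. Stromal genes summed to 209 and 92.9 CPM after LPS and 175 and 37.3 after TNF, and none of 6 tested was called with edgeR over the 18 libraries. The collagen gene Col1a2 was called higher by DESeq2 (0.96, adjusted p = 0.028) and by edgeR without the WT LPS (1.26, adjusted p = 0.030) or the WT TNF library (1.43, adjusted p = 0.047).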

How the data were processed

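Per the labels' protocols, poly(A) libraries came from the KAPA Stranded mRNA-Seq kit, sequenced single-end to 50 bp. The authors deposited raw gene counts per library, not normalized, for 45706 genes on mm10. Per the submitters' processing notes, cutadapt 1.12, STAR, featureCounts 1.5.0 and DESeq2 were used; the sources used here give neither strand nor annotation release, so overlapping and antisense genes are less certain. Of these genes, 24529 had no count in any library.

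The counts went into edgeR 4.0.16 under R 4.3.3 (TMM, robust quasi-likelihood, filterByExpr with minimum count 10 and total 15). All 18 libraries entered with condition and genotype as terms, leaving 8 residual degrees of freedom (6 for the interaction). The alternative fit of only the 4 libraries at 3 h left 1. Standard errors are the log2 fold change over the root of F and are approximate. CPM used TMM-scaled totals, and within-genotype ratios a prior count of 0.5. Pairs at 0 counts used a floor of 3 counts, and pairs of 1 to 3 counts exact 95% intervals of the ratio. Labels carry no replicate numbers; genotype pairs the libraries, and deviations of RelA-TA-KI from WT at LPS 3 h and TNF 3 h correlated at r = 0.437 across 11308 genes, which are not independent.

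Named genes were the 12 with the largest called change in each direction (8 between times) with a mean of 5 CPM or more, the same sign in both genotypes and no numbered gene models, up to 4 called members of each of 37 lists, and any member of the interferon, cytokine, chemokine, NF-kB and receptor lists. Some results for single genes are not reported here, though those genes stay in all counts. Members and lists were chosen with earlier results of these data known. Alternatives were DESeq2 1.42.0 and its size factors, library totals, limma-voom (limma 3.58.1), other filters, other sets of libraries, no genotype block, and leaving out each library. The edgeR fits were tested on simulated counts. Promoters and their coordinates are from RefSeq, and 8909 of 11308 tested genes matched by symbol; no other sequence was used.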

Additional observations from a re-analysis of the deposited data

Results flagged for a closer look

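The gap between LPS and TNF was tested for a difference between times, and 2323 genes differed between 3 h and the mean of 0.5 and 1 h. Genes chosen by the naming rule were larger toward LPS at 3 h by a log2 of 7.84 in Iigp1, 7.57 in Il6, 7.20 in Serpina3g, 6.84 in Adamts4, 6.59 in Ifi208, 6.51 in Mx1, 6.46 in Ifit1bl1 and 6.23 in Tnfsf15. Il6, Serpina3g and Ifi208 had groups of 3 or fewer reads, so their size depends on the prior count. The call of Tnfsf15 was lost with no filter on low counts (adjusted p = 0.114) and without the RelA-TA-KI TNF library (5.73, adjusted p = 0.0629, edgeR), and that of Ifi208 with no filter on low counts (adjusted p = 0.0926) and without the WT TNF (6.57, adjusted p = 0.0505) or the RelA-TA-KI LPS library (6.45, adjusted p = 0.0516).

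In the other direction the gap differed by -4.37 in Irf2bp2, -4.30 in Cdca7, -4.05 in Sesn1, -3.99 in Gdf15, -3.80 in Egr2, -3.72 in Kcnj2 and -3.58 in Pdgfb. The call of Egr2 was lost with no filter on low counts (adjusted p = 0.103), with limma-voom (adjusted p = 0.113) and with edgeR without the WT LPS (-3.33, adjusted p = 0.162), the RelA-TA-KI LPS (-4.41, adjusted p = 0.114) or the RelA-TA-KI TNF library (-2.36, adjusted p = 0.25). That of Gdf15 was lost without the RelA-TA-KI LPS (-3.63, adjusted p = 0.086) or the RelA-TA-KI TNF library (-3.46, adjusted p = 0.0513). Irf2bp2 read 132.5 and 117 CPM at 0.5 h of LPS, 77.3 and 110 at 1 h, 3.62 and 4.81 at 3 h and 39.7 and 13.0 at 8 h, and between 120 and 186 at every time of TNF.

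Between 3 and 8 h the gap differed in 3200 genes. It was larger toward LPS at 3 h by 4.49 in Ifit1, 4.31 in Neil3, 4.01 in Dock3, 3.85 in Oasl1, 3.80 in Grwd1, 3.77 in Ube2t, 3.75 in Pank1 and 3.68 in E2f7. Neil3, Dock3, Ube2t, Pank1 and E2f7 had 3 or fewer reads in the pair of LPS libraries at 8 h. It was larger at 8 h, with differences of -4.12 in Pou2f2, -3.28 in Napepld, -3.17 in Adra1a, -3.11 in Slc28a2, -2.97 in Ddit3, -2.78 in Dusp1, -2.78 in Tle3 and -2.64 in B3gnt8. Pou2f2 read 37.3 and 10.7 CPM after LPS and 43.2 and 19.8 after TNF at 3 h, and 375 and 332.5 against 31.5 and 23.4 at 8 h. The call of Dusp1 was lost without the RelA-TA-KI TNF library (-2.41, adjusted p = 0.073, edgeR).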

How the results depend on the processing

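Of 273 results for single genes, 178 kept their side of the threshold under every alternative tried, and their direction where called. A further 85 changed side and 10 reversed. A reversal was counted only where the gene was called in the reported fit or in the alternative. Changes of sign in genes called in neither were not counted. LPS against TNF at 3 h gave 3539 calls, 6651 with library totals (2731 shared in direction), 2174 with only the 4 libraries at 3 h (2101 shared), 1591 at a log2 fold change of 1 or more, 2759 without the genotype block (no replicate block) and 2467 to 2790 on leaving out 1 library. TNF against unstimulated gave 1522, and 746 to 1622 on leaving out 1 library, with 905 without the WT and 746 without the RelA-TA-KI TNF library. The gap at 3 h against earlier times gave 2323, 4292 with library totals and 1749 to 1984 on leaving out 1 library. The interaction with genotype gave 0, 26 with no filter on low counts and 26 with DESeq2, and could not be fitted without any of the 4 libraries at 3 h. LPS against unstimulated ranged from 4245 to 5406, and 3 h against 8 h from 2513 to 2827, on leaving out 1 library. Reversed with library totals were Msr1 (-0.06), Lamp2 (-0.01), Ctss (-0.03), Cd4 (-0.40), Ifnar1 (-0.37), Ifnar2 (-0.02), Jak1 (-0.07), Ccl6 (-0.37) and Traf6 (-0.28), where the median of all genes shifted by -0.40; without the WT LPS library Cxcl3 reversed (-0.16, and up to 2.63 on leaving out another library). The cause was not tested for the changes other than those with fewer libraries or genes. Depth limits genes of a few reads after TNF, such as Ifnb1 and Il6, whose ratios have wide counting intervals.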
